A study of Drosophila melanogaster with 16 samples.

Results

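The dpr and DIP genes of Drosophila melanogaster encode cell-surface proteins of the immunoglobulin superfamily. Their 32 members were taken as all protein-coding genes whose symbol is dpr followed by a number or begins with DIP-, among 13922 protein-coding genes on arms 2L, 2R, 3L, 3R, 4 and X. They comprise 21 dpr genes, dpr1 to dpr21, and 11 DIP genes, DIP-alpha to DIP-lambda. The rule uses symbols and no measured value, but it was set with earlier results of these data known.

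Dpr proteins (defective proboscis extension response) and DIPs (Dpr-interacting proteins) bind each other across cell contacts, each DIP with its own set of Dprs. Neurons carry different combinations of them, and the pairs take part in synaptic partner matching, in neuron survival in the optic lobe and in the targeting of motor axons. These are late roles, in differentiated neurons. The chromatin described here comes from an earlier stage, before neurons form.

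Contacts were mapped by Micro-C, in which crosslinked chromatin is cut by micrococcal nuclease and ligated, in whole embryos at nuclear cycle 14 (nc14). The series holds 16 samples. The values below are from the control line yw, labelled WT, with 2 samples and no deletion or insertion named in its label. The other 14 samples carry the genotype labels SF1_del, SF2_del, Dfd_3Ins, Scr_DTE, AntpDTE1 and AntpII1, with 2 samples each, and ScrEE1 and ScrEE2, with 1 each, and were not analysed here. Each embryo sample is a pool of embryos of mixed cell types, so a feature confined to few cells is diluted.

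The authors deposited 1 list of boundaries and 1 list of loops for yw, with no column per sample. No value therefore has a replicate error, the depth of the map is unknown, and all comparisons below are descriptions without a test. A boundary is a bin of 400 bp at which contacts between its sides are reduced, with a strength deposited as a score. The list gives 1930 boundaries on the compared arms, of strength 1.2502 and above, with a median of 1.64. A loop joins 2 anchors that contact each other more than their surroundings, and its value is likewise a deposited score. The 313 loops had a median value of 7.75 and a median span of 32.8 kb. A domain is the interval between 2 neighbouring boundaries, and the domain of a gene is the one that holds its midpoint. A feature missing from a list may be weaker than the authors' cut and is not shown to be absent.

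The dpr and DIP genes were longer than most protein-coding genes, and most lay in domains of at least 100 kb. Their median length was 32.5 kb, with quartiles of 14.5 and 51.3 kb, against 2.16 kb over all protein-coding genes. Of the 32 genes, 18 (56.2%) were at least 20 kb long, compared with 7.27% of all protein-coding genes. The domain around a member had a median of 170.8 kb and quartiles of 107 and 239 kb, against a median of 112.2 kb around all protein-coding genes. Around genes of at least 20 and 50 kb the median domain was 141.8 and 173.6 kb. A boundary lay inside 2 of the 32 members (6.25%, against 3.42% of all protein-coding genes). An anchor lay in or within 20 kb of 3 (9.38%, against 13.8%). The map of all members in their domains shows the coloured genes running without a boundary mark in all but dpr21 and DIP-lambda.

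**Figure D1:**
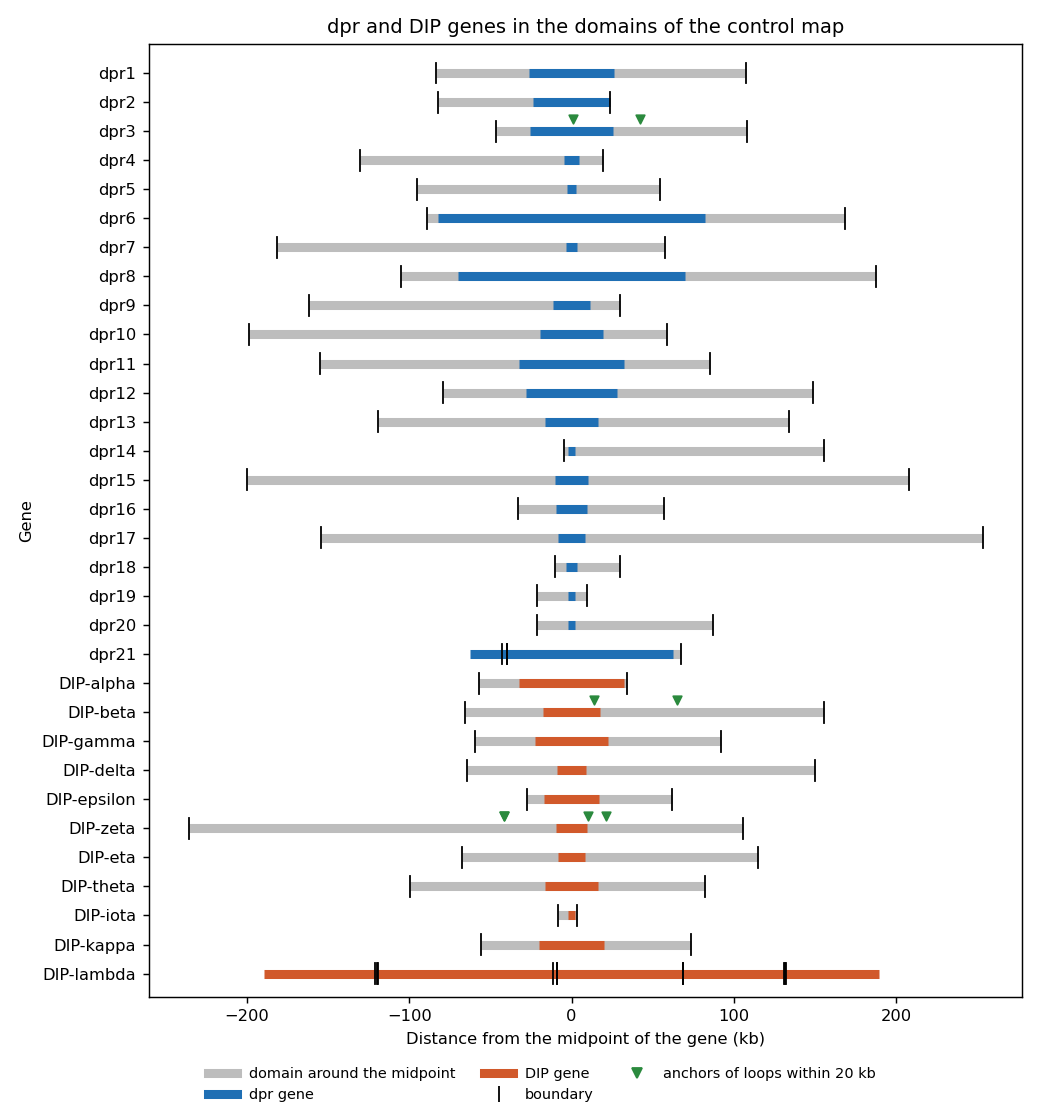
Each row is 1 gene, centred on its midpoint, and the x axis gives the distance from that midpoint in kb. Blue (dpr) and orange (DIP) bars are genes, grey bars the domain around the midpoint, black ticks boundaries and green triangles the anchors of loops with an anchor within 20 kb of the gene. Boundary ticks fall inside the gene only in dpr21 (2) and DIP-lambda (9), and triangles stand only over dpr3, DIP-beta and DIP-zeta.

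Lengths differed widely within both families. The longest dpr genes were dpr6 at 165 kb, dpr8 at 140 kb and dpr21 at 125 kb. The first of these encodes, with dpr10, the ligands that DIP-alpha binds at motor synapses and in the medulla of the optic lobe. The shortest dpr genes were dpr19 (3.74 kb), dpr20 (4.53 kb) and dpr14 (4.58 kb), and 7 of the 21 were under 10 kb. Among DIP genes, DIP-lambda covered 379 kb and was the 6th longest protein-coding gene of the compared arms. DIP-alpha covered 64.4 kb and DIP-gamma 45.4 kb, and the shortest was DIP-iota at 4.57 kb. Lengths are those of the gene over all its transcripts, so a short transcript of a long gene is not seen.

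Domain size did not simply follow gene length. The largest domain with a member, of 407.2 kb and rank 15 of 1895 on the compared arms, held dpr15 and dpr17, genes of 19.8 and 16.5 kb. DIP-zeta, of 19.5 kb, lay in a domain of 341.2 kb. The gene dpr9, of 22.3 kb, lay in a domain of 191.2 kb, DIP-kappa, of 40.5 kb, in one of 129.2 kb, and DIP-epsilon, of 33.6 kb, in one of 88.4 kb. The small gene dpr7 on chromosome 4, of 6.21 kb, lay in one of 238.4 kb. The long genes dpr8 and dpr6 lay in domains of 292.4 and 257.2 kb, of which they filled 47.9% and 64.0%. At the other end stood DIP-iota, in a domain of 11.6 kb, dpr19, in one of 30.8 kb, and dpr18, in one of 39.2 kb. Of all 32 members, 25 (78.1%) lay in domains of at least 100 kb, against 54.1% of all protein-coding genes. At a limit of 150 kb the shares were 59.4% and 39.2%, and at 200 kb they were 37.5% and 25.6%.

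Gene length and domain size are tied in part, since a gene with no boundary overlapping it fits within its domain. Within classes of gene length, members of 5 to 20 kb had a median domain of 198.0 kb (n = 10), against 91.2 kb over all 2469 genes of this class. For 20 to 50 kb the medians were 181.6 kb (n = 9) and 126.4 kb, and for 50 to 100 kb they were 190.8 kb (n = 5) and 162.8 kb. At 100 kb and over they were close, at 182.0 kb (n = 4) and 183.2 kb, and below 5 kb the order was turned, at 69.4 kb (n = 4) and 115.6 kb. The larger domains of members were thus seen in the 3 middle classes and not in the shortest or the longest genes. Members that share a domain enter these medians more than once. With each domain counted once, the median over all members was 157 kb. The medians of all protein-coding genes count every gene, so this value cannot be set against them.

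**Figure D2:**
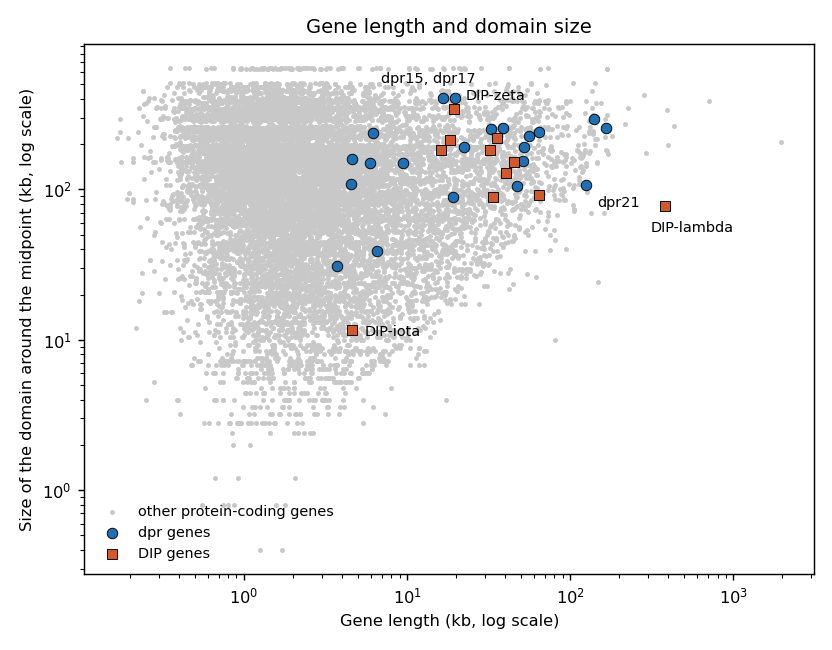
Each point is 1 gene, with its length in kb on the x axis and the size of the domain around its midpoint in kb on the y axis, both on log scales. Blue circles are dpr genes, orange squares DIP genes and grey points other protein-coding genes. DIP-iota stands lowest of the members at 11.6 kb and dpr15 and dpr17 highest at 407.2 kb, and DIP-lambda and dpr21, which hold boundaries, are longer than the domain around their midpoint.

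Boundaries inside the gene were found in 2 of 32 members (6.25%), with 3.42% as the share over all protein-coding genes. That share rose with length, to 16.8% of genes of at least 20 kb and 29.6% of genes of at least 50 kb. Any overlap of a boundary with the gene gave the same 2 members, against 10.3% of all protein-coding genes, and so did boundaries of at least the median strength, against 1.44%. The 18 members of at least 20 kb include both genes with a boundary. None of the 9 members of 20 to 50 kb and none of the 5 of 50 to 100 kb held one, where 11.2% and 22.8% of all genes of these lengths did. Of the 4 members of at least 100 kb, dpr6 and dpr8 held none and dpr21 and DIP-lambda did, against 48.2% of the 83 genes of this class. The counts per class are small, and no test was made of these differences.

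Both exceptions lie in the part of arm 2R nearest the centromere. In DIP-lambda (2R, 326768 to 705848), 9 boundary entries fell at 4 places, the outermost of them 68.4 kb from the left end and 57.0 kb from the right end of the gene. At 395201 to 397200, 3 entries had the same strength of 2.11. Entries at 504401 and 507201 had strengths of 1.98 and 1.72. A single entry at 584801 had 1.35, the weakest of the gene. At 646801 to 648800, a further 3 entries shared a strength of 2.23, rank 296 of 1930. The 9 entries thus carried 5 different strengths, and entries with an identical strength side by side may not be separate boundaries. In dpr21 (2R, 3066499 to 3191011), boundaries lay at 3085601, with a strength of 1.60, and at 3088801, with 1.85, and another lay 4.99 kb beyond its right end. The nearest anchor lay 1941 kb from DIP-lambda and 325 kb from dpr21.

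Per length of gene body, the members held 6.96 boundaries per Mb, against 6.54 over all protein-coding genes and 5.99 over those of at least 20 kb. All 11 boundary entries came from DIP-lambda and dpr21. Without these genes, the other 30 members held 0 boundaries in 1.08 Mb. Leaving out both genes was chosen after their values were seen, and the density of 0 is fixed by that choice. With neighbouring entries of equal strength counted once, the density of all members was 4.43 per Mb. No background density was counted in this way, so this value cannot be set against 6.54 or 5.99.

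**Figure D3:**
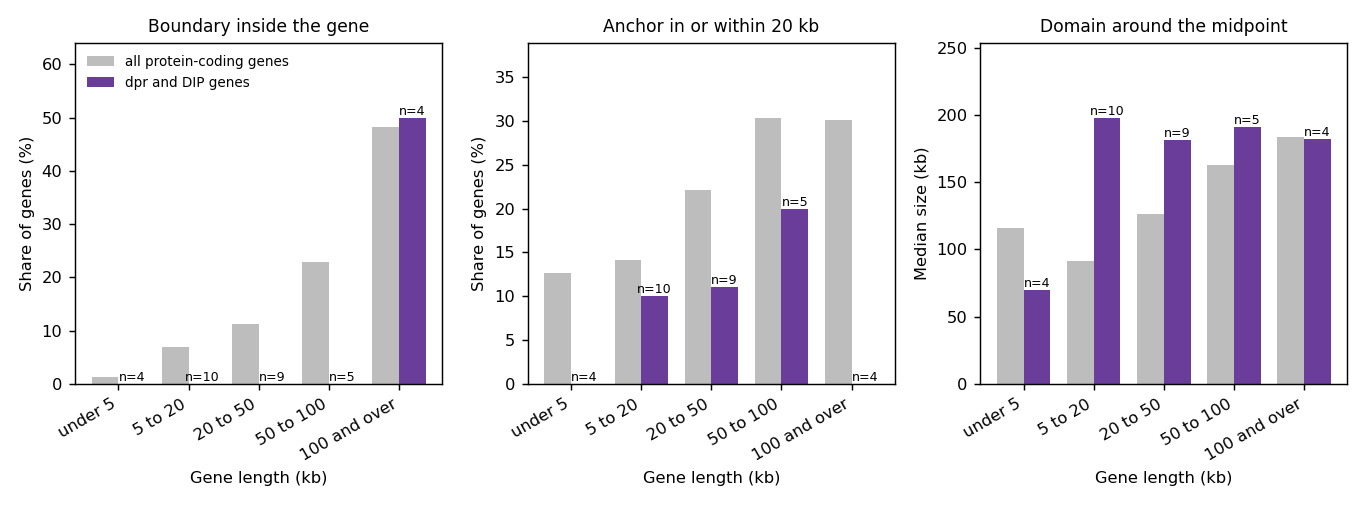
The panels give, by class of gene length in kb on the x axis, the share of genes in percent with a boundary inside, the share in percent with an anchor in or within 20 kb, and the median domain in kb. Grey bars are all protein-coding genes and purple bars the dpr and DIP genes, with their number above. Among members, boundaries inside occurred only in the class of 100 kb and over (2 of 4), and anchors only in the 3 middle classes (1 member in each).

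The ends of most members lay farther from boundaries than those of most protein-coding genes. The nearest boundary to either end of a member lay at a median of 34.9 kb (quartiles 7.41 and 54.5 kb), against 14.3 kb over all protein-coding genes and 9.38 kb over those of at least 20 kb. By length class, the medians for members and all genes were 54.8 and 7.72 kb at 5 to 20 kb, 36.6 and 9.55 kb at 20 to 50 kb, and 50.7 and 10.4 kb at 50 to 100 kb. Below 5 kb the order was turned (4.90 and 16.4 kb), and at 100 kb and over the values were close (6.00 and 6.46 kb). A boundary within 1 kb of an end was found for 1 of 32 members (3.12%, exact binomial 95% interval 0.0791 to 16.2%), where 18.2% of all protein-coding genes and 28.4% of those of at least 20 kb had one. This member was dpr2, 248 bp from a boundary of strength 1.27 that lies closer still to Tmem214 (105 bp). Next came DIP-iota at 1101 bp, DIP-alpha at 1952 bp and dpr14 at 2104 bp. In each of these 3 cases the boundary overlapped an end of another gene, CG34345, CG2875 and the ribosomal protein gene RpS6. The interval covers counting error only and is no test, since neighbouring genes and members that share a domain are not independent.

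**Figure D4:**
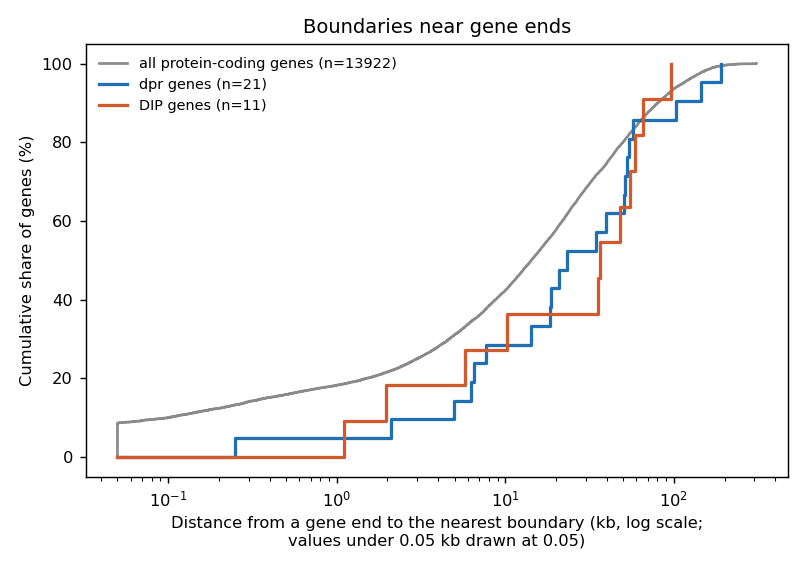
The x axis gives the distance from the nearer gene end to the nearest boundary in kb on a log scale, and the y axis the cumulative share of genes in percent, for all protein-coding genes (grey), dpr genes (blue) and DIP genes (orange). At 1 kb the grey line stands at 18.2% and the lines of the members at 4.76% (dpr) and 0% (DIP).

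Many borders of the members' domains stood at other genes, at a share near that of all boundaries. The 32 members lay in 28 domains with 56 borders, and at 45 of these (80.4%) a protein-coding gene ended or began no more than 1 kb away, against 72.9% of all boundaries. Both borders of the domain around the midpoint of DIP-lambda, and the left border of that of dpr21, lay inside these genes themselves. Border strengths lay between 1.27 and 4.76, around a median of 1.71. The strongest stood 6.54 kb from dpr18, inside the mucin gene Muc14A. The domain of dpr15 and dpr17 began at Cad87A (strength 2.73) and ended 136 bp from MBD-R2 (1.83). The domain of dpr11 ran from a boundary of 2.42 beside Dmtn to one of 1.79 lying 89 bp from Taf1, a gene of the general transcription factor TFIID. That of dpr4 and dpr5 began at pros, which encodes a neural homeodomain protein. The small domain of dpr19 ended at mRpS7, a mitochondrial ribosomal protein gene. Protein-coding genes were sparser around members, with a median of 8.92 per 100 kb of domain, against 14.4 around all protein-coding genes and 9.26 around those of at least 20 kb.

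Members next to each other shared domains. The pairs with less than 100 kb between them were dpr6 and dpr10 (8.09 kb apart), DIP-eta and DIP-theta (8.35 kb), dpr15 and dpr17 (27.4 kb), and dpr4 and dpr5 (27.5 kb). In all 4 pairs no boundary lay between the genes. This is the common case, since 81.9% of 9683 protein-coding gene pairs 5 to 30 kb apart, with at most 1 protein-coding gene between them, also had none. DIP-eta and DIP-theta, which encode closely related DIPs, lay in a domain of 181.6 kb with borders at Lam and CG11030. The neighbours dpr6 and dpr10 lay in one of 257.2 kb, from a boundary 6.25 kb from dpr6 to one 39.5 kb from dpr10, beside scramb1. The gene of their receptor, DIP-alpha, is on X, where it filled 70.6% of a domain of 91.2 kb. No listed loop joined 2 members. All listed loops are within an arm, so none could join DIP-alpha to dpr6 or dpr10.

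Other known partners also lay in separate domains. DIP-gamma and dpr11, which pair in colour vision circuits and at motor synapses, both lie on 3R, in domains of 151.2 and 240.0 kb with no anchor within 94.0 and 115 kb. DIP-delta and dpr12, which pair in the mushroom body, lie on 3L and 2R in domains of 214.4 and 227.2 kb. A loop within an arm cannot join genes on different arms. The nearest anchor lay 910 kb from DIP-delta, the farthest of any member but DIP-lambda, and 114 kb from dpr12. The founding member dpr1, named for a role in salt aversion, lay in a domain of 190.8 kb with 30 protein-coding genes, 164 kb from an anchor. A nearest anchor more than 100 kb away was common, for 62.5% of members and 57.8% of all protein-coding genes.

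Loop anchors lay in or near 3 members. An anchor in or within 20 kb was found for dpr3, DIP-beta and DIP-zeta, 3 of 32 (9.38%), with 13.8% as the share over all protein-coding genes and 24.6% and 30.3% over those of at least 20 and 50 kb. The share of members was below all of these, but 18 of the 32 members are at least 20 kb long. By length class, 1 of 9 members of 20 to 50 kb had such an anchor, against 22.1% of all genes of this class. For 50 to 100 kb it was 1 of 5, against 30.4%, and at 100 kb and over 0 of 4, against 30.1%. For 5 to 20 kb it was 1 of 10, against 14.1%, and below 5 kb 0 of 4, against 12.7%. The counts per class are small. The exact binomial 95% interval of the share over all 32 members was 1.98 to 25.0%. This interval covers counting error only and is no test, since members that share a domain are not independent. An anchor in the gene itself was found for 2 members (6.25%), against 2.00% of all protein-coding genes and 13.4% of those of at least 20 kb. Both are among the 18 members of at least 20 kb. The median distance from a member to the nearest anchor was 128 kb, close to the 130 kb over all protein-coding genes. Over genes of at least 20 and 50 kb it was 99.1 and 97.3 kb.

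At DIP-zeta (2L, 9051631 to 9071164), 2 loops shared their left anchor at 9019201 to 9020000, 31.6 kb to the left of the gene and between other genes. The right anchor of the first lay at 9071201 to 9072000, 37 bp beyond the right end of DIP-zeta. The value of this loop was 7.70, rank 161 of 313, over a span of 52.0 kb. The right anchor of the second lay at 9082401 to 9083200, 11.2 kb beyond the gene and 907 bp from Toll-4, a gene of the Toll receptor family. It spanned 63.2 kb with a value of 6.23. DIP-zeta thus lay between the anchors of both loops, the only member so placed (3.12%, against 3.15% of all protein-coding genes). It was also the only member with an anchor within 1 kb of an end, which 2.14% of all protein-coding genes had.

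At DIP-beta (X, 21422115 to 21457738), the left anchor of a loop of value 6.07 lay inside the gene at 21453601 to 21454400, 3338 bp from its right end. The right anchor, at 21504801 to 21505600, lay between genes and 11834 bp from Cyp6t1, the nearest gene end. At dpr3 (2L, 2058790 to 2109878), the left anchor of a loop of value 4.50 lay at 2084801 to 2085600, near the middle of the gene and 24.3 kb from its nearer end. Its right anchor at 2126401 to 2127200 lay 16.5 kb beyond the gene and 109 bp from CG4259. These loops spanned 51.2 and 41.6 kb. None of the 4 loops crossed a boundary, and none reached the median value of 7.75. Loops of at least that value thus had an anchor within 20 kb of 0 of 32 members, against 5.65% of all protein-coding genes and 12.1% of those of at least 20 kb. A window of 50 kb gave 4 members (12.5%, against 25.9% of all protein-coding genes). It added dpr16, 24.5 kb from an anchor of a loop of value 4.63 on the other side of the boundary at its domain's left border.

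Of the 28 domains with members, 5 (17.9%) held a whole loop, against 11.3% of all 1895 domains. Among domains of at least 100 kb the shares were 5 of 21 (23.8%) and 27.0%. The loop of highest value in these domains, 24.3 and rank 55, lay in the domain of dpr15 and dpr17. Its left anchor, at 12244801 to 12245200, lay between genes and 86.2 kb from dpr15, and its right anchor, at 12278801 to 12279200, lay inside svp, which encodes a nuclear receptor of the COUP family. The loop in the domain of dpr13 had a value of 4.49 and joined CG5098 and stau, the gene of an RNA-binding protein.

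The dpr and DIP families overlapped in length, domain size and the shares with features. Median lengths were 22.3 kb for dpr and 33.6 kb for DIP genes, in ranges of 3.74 to 165 kb and 4.57 to 379 kb that overlap over most of their extent. Of the dpr genes, 11 of 21 were at least 20 kb long, and of the DIP genes 7 of 11. Domains had a median of 190.8 kb around dpr genes (quartiles 108 and 253 kb) and 151.2 kb around DIP genes (89.8 and 198 kb). A boundary lay inside 1 of 21 dpr genes (4.76%, exact binomial 95% interval 0.120 to 23.8%) and 1 of 11 DIP genes (9.09%, 0.230 to 41.3%). An anchor lay in or within 20 kb of 1 of 21 dpr genes (4.76%, 0.120 to 23.8%) and 2 of 11 DIP genes (18.2%, 2.28 to 51.8%). Each pair of intervals overlaps, but the intervals cover counting error only and are no test of a difference between the families. Boundaries per Mb of gene body were 2.25 in dpr and 13.1 in DIP genes, where all 9 entries of the DIP genes lay in DIP-lambda and both of the dpr genes in dpr21. The nearest boundary to a gene end lay at a median of 23.3 kb for dpr and 36.6 kb for DIP genes. The arms differed too, with 6 of the 11 DIP genes but 3 of the 21 dpr genes on 2L, and 7 dpr genes but 1 DIP gene on 3R.

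A list of 48 other genes of cell recognition and adhesion, not all of them neuronal, was set beside the members. It includes the beat and side families, the Dscam genes, the teneurins Ten-a and Ten-m, and the immunoglobulin superfamily genes Ama, Lac and klg. The 48 genes had a median length of 41.2 kb and a median domain of 279.4 kb. Several of them share a domain, among them groups of beat genes, so a domain can enter this median more than once. It was not computed with each domain counted once. For the 48 genes, the nearest boundary to a gene end lay at a median of 44.6 kb, against 34.9 kb for members. The median of protein-coding genes per 100 kb of domain was 8.31, against 8.92. Neither trait is thus particular to the dpr and DIP genes. A boundary lay inside 2 of them, kirre and Ten-a (4.17%), and 3 boundaries in 2.72 Mb gave 1.10 per Mb. An anchor lay in or within 20 kb of 14 (29.2%), against 9.38% of dpr and DIP genes, 13.8% of all protein-coding genes and 24.6% of those of at least 20 kb. The 14 genes are not separate places, since caps and trn, beat-Vb and beat-Vc, and kirre and rst each share a loop. For 11 of the 48 such an anchor belonged to a loop of at least the median value, and for none of the 32 members. At DIP-zeta, a loop of value 7.70 fell just below that median of 7.75. The highest loop values of the list were 128 at Ten-a, 88.6 at hbs, an adhesion gene of myoblast fusion, and 68.1 at caps and trn, leucine-rich repeat genes. No gene of this list lay in the domain of a member.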

How the data were processed

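Micro-C libraries of yw embryos at nc14 were made with double crosslinking and micrococcal nuclease, per the labels' protocols. The submitters' processing notes name BWA 0.7.17 and dm6. The sources used here do not give whether the 2 yw samples were pooled or how contact matrices were normalized, and depth is unknown. Boundary strength and loop value were used as scores deposited by the authors, within each list only. The deposited loop lists are named for the SIP caller.

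Of 2034 boundary entries, 14 exact repeats were removed, leaving 2020, of which 1930 lay on the compared arms. The 626 deposited anchors gave the same 614 intervals as the loop table. Gene coordinates were read from RefSeq's table for Release 6, the assembly of dm6, which has no strand, so transcription starts were not placed. A boundary counted as inside when its whole bin lay in the gene, and distances to anchors counted from the nearest edge. Domains were measured between the inner edges of boundary bins, and bins that touch formed none. A gene's share of its domain was computed only without a boundary inside. Summed gene lengths count overlapping genes more than once. Intervals are exact Clopper-Pearson intervals at the 95% level. Functions were tested on planted features. The analysis used Python 3.11.15, pandas 2.3.3, numpy 2.4.6, scipy 1.17.1 and matplotlib 3.10.9.

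All members are named, with values. Other genes are named where an anchor or border beside a member lies in or nearest to them, or, from the list of 48, up to 5 by loop value. The other genes of that list that are named (kirre, rst and examples of its makeup) were chosen after their values were seen. The gap range for background gene pairs was also chosen after seeing the data. The members and the list were chosen with earlier results of these data known. Planned promoter motif and protein comparisons were not made, since no sequences were used here. Alternatives changed the window, the loops, the boundaries, the domain and the genes used.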

Additional observations from a re-analysis of the deposited data

How the results depend on the processing

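No paired analysis was possible because the lists have no column per sample, and for the same reason no replicate could be left out. Of 57 alternative values, 40 stayed within 1.5 times the reported value and 17 did not. Counting loops from the median value upward, 0 of 32 members, 0 of 21 dpr and 0 of 11 DIP genes had an anchor within 20 kb. A loop of value 7.70 at DIP-zeta fell just below that median of 7.75. With a window of 50 kb, 2 dpr genes had an anchor, and with the anchor required in the gene body, 1 DIP gene. Without DIP-lambda and dpr21, an exclusion chosen after seeing the data, the number of genes with a boundary inside was 0 among all members, dpr and DIP genes, and the density was 0 per Mb. With entries of equal strength within 2 kb counted once, an alternative also added after seeing the data, the density was 4.43 per Mb. This count was made for members only and has no background beside it. With boundaries of at least the median strength, the median domain was 299 kb for members, 318 kb for dpr and 263 kb for DIP genes, where all protein-coding genes had 252 kb. Genes of at least 20 and 50 kb then had 251 and 292 kb. With each domain counted once, an alternative not planned, the median domain was 157 kb for members, 175 kb for dpr and 140 kb for DIP genes. The medians of all protein-coding genes count every gene, so these values cannot be set against them. Over genes of at least 20 and 50 kb, the background share with an anchor within 20 kb was 24.6% and 30.3%, and that with a boundary inside 16.8% and 29.6%. The cut on boundary strength, the authors' loop filter and the unknown depth limit every statement that a feature is missing.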
